A study of Mus musculus with 220 samples.

Results

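The genes described here are 7 genes of the MHC class II pathway, taken by symbol from a table of 24049 gene symbols: Cd74, H2-Aa, H2-Ab1, H2-Eb1, H2-DMa, H2-DMb1 and Ciita. All 7 were found, and they were read in 219 single endothelial cells of mouse lymph nodes. The cells came from C57BL/6 mice and form 4 groups. Untreated nodes gave 32 cells of blood vessel endothelium (BEC) and 79 high endothelial cells (homeostatic HEC), the cells of the venules through which lymphocytes enter a node. A further 64 HEC came from mice whose skin had been exposed to 4% oxazolone, a contact sensitizer, and were taken on day 3 (inflamed HEC). The last 44 HEC (dedifferentiated HEC) are from mice given LTBR-Ig in 1 intraperitoneal injection, with harvest on day 7; this receptor fusion protein catches lymphotoxin and so blocks the signal keeping these venules mature. Cells were sorted by flow cytometry and captured on the Fluidigm C1 system. No animal, chip or capture day is named, so each group counts as 1 sample, group and capture cannot be told apart, and values are given with no test.

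MHC class II molecules are pairs of an alpha and a beta chain that show peptides from the endosome to CD4+ T cells. The invariant chain CD74 escorts the new pair to the endosome, and the H2-DM heterodimer then helps to exchange the last piece of CD74 for a peptide. Transcription of these genes depends on CIITA, a coactivator held by factors that sit on short promoter elements, of which the X box is bound by the RFX complex and the Y box by NF-Y. Dendritic cells, macrophages and B lymphocytes express the genes constantly, and other cells, endothelium among them, can be induced to express them by interferon gamma. C57BL/6 mice carry no working H2-Ea gene, so the beta chain of H2-Eb1 has no alpha partner in this strain.

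In GRCm38 (GENCODE M21), 5 of the protein-coding genes lie in the class II region of chromosome 17: H2-DMa at chr17:34119541-34139101 and H2-DMb1 at chr17:34153072-34160230 on the plus strand, H2-Ab1 at chr17:34257689-34269419 on the plus strand, H2-Aa at chr17:34282744-34287823 on the minus strand, and H2-Eb1 at chr17:34305867-34316674 on the plus strand. Ciita is at chr16:10480059-10528418 on the plus strand, and Cd74 lies outside the region. RefSeq promoter windows (GRCm38.p6), running from 250 bases before to 50 bases after a transcript start, were matched for 4 of the 7 genes. Those of H2-Aa, H2-Eb1 and H2-DMb1 are printed because they hold the promoter letters that these genes share. Capitals mark an X box match (CTNGNAAC) and a Y box core match (GATTGG); the last capitals of H2-Eb1, CCAATC, are a Y core on the other strand.
H2-Aa promoter, chr17:34287774-34288073, minus strand: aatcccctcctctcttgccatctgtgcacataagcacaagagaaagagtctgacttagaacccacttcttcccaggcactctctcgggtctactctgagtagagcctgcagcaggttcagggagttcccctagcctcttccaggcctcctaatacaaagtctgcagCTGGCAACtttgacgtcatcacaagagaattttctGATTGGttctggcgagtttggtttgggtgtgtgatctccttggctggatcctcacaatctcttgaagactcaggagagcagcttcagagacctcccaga
H2-Eb1 promoter, chr17:34305617-34305916, plus strand: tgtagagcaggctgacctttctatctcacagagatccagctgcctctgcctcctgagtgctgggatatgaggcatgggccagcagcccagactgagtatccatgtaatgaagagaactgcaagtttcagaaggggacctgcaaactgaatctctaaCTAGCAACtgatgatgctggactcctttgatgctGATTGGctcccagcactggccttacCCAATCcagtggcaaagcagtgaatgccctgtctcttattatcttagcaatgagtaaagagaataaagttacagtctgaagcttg
H2-DMb1 promoter, chr17:34152941-34153240, plus strand: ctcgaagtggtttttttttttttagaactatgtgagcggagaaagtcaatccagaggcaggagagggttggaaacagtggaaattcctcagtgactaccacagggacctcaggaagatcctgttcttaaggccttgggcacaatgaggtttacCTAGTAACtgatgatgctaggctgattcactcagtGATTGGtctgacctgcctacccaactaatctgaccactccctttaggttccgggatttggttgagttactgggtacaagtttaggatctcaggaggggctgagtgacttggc
The 3 printed windows, of 5 matched for 4 genes, were chosen for holding these letters. In them the X letters came first and the Y core followed on the same strand. From start to start there were 35 bases in H2-Aa, 34 in H2-Eb1 and 35 in H2-DMb1. The Y core began 49 bases before the transcript start in H2-Aa, 60 before in H2-Eb1 and 62 before in H2-DMb1. Searched on both strands, the Y core was in 16.1% and the X letters in 13.2% of 32851 RefSeq promoters, and the matches of the 2 motifs did not overlap in these windows. The X letters followed by the Y core, with starts 20 to 40 bases apart, were in 33 of the 32851 promoters, or 0.10%. H2-DMa has 2 windows and neither held the ordered pair. They begin at chr17:34122582 and chr17:34125268, inside the gene. Its annotated start at chr17:34119541 was not among the searched windows. A match is a run of letters and was not measured as a bound site in these cells.

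Depth was approximated from the steps of low values and had medians of 2149000 fragments per cell in BEC, 1957000 in homeostatic, 2306000 in inflamed and 2230000 in dedifferentiated HEC, over a range of 747000 to 5376000. The endothelial genes Cdh5 (vascular cadherin) and Pecam1 were at an FPKM of 1 or more in all 219 cells, with lowest values of 1.16 and 12.1, and the lymphatic factor Prox1 was above 0 in 1 BEC, at 0.13. Glycam1, a mucin of high endothelium, had a median of 59091 in homeostatic HEC and of 66.2 in BEC, where its lowest value was 32.8. A gene that marks the other cell kind was thus read at a low level in every BEC, and values between 0 and 10 of the class II genes are given apart from higher ones below for this reason. At the median depth, 1 fragment is worth an FPKM of about 0.379 for Cd74, 0.152 for H2-Aa and 0.454 for H2-Ab1. These values take the longest annotated transcript of each gene, of 1410, 3223 and 1212 bases. For a shorter transcript 1 fragment is worth more. An FPKM (the fragment number scaled for transcript length and library depth) of 1 or more is called found.

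Cd74, the invariant chain, was the most widely found member. In BEC its FPKM ran from 0 over a median of 1.05 to 869, and 17 of 32 cells (53.1%; exact 95% interval over cells 34.7 to 70.9) had it. In homeostatic HEC it ran from 0 over a median of 256 to 5639, and 70 of 79 cells (88.6%; 79.5 to 94.7) had it. In inflamed HEC the lowest value was 0, the median 5.43 and the highest 2817, with 43 of 64 cells (67.2%; 54.3 to 78.4). In dedifferentiated HEC the lowest value was 0.77, the median 55.4 and the highest 3357, with 42 of 44 cells (95.5%; 84.5 to 99.4). The ranges of the 4 groups overlap, and homeostatic HEC had the highest median. At an FPKM of 10 or more Cd74 was in 5 of 32 BEC, 63 of 79 homeostatic, 28 of 64 inflamed and 27 of 44 dedifferentiated HEC. As means of log2(FPKM + 1) these levels were 1.93 ± 2.39 in BEC, 7.10 ± 3.43 in homeostatic, 4.02 ± 3.76 in inflamed and 5.65 ± 3.49 in dedifferentiated HEC (SD over cells). The spread over cells within a group was thus larger than the difference between homeostatic and either treated HEC group.

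**Figure D1:**
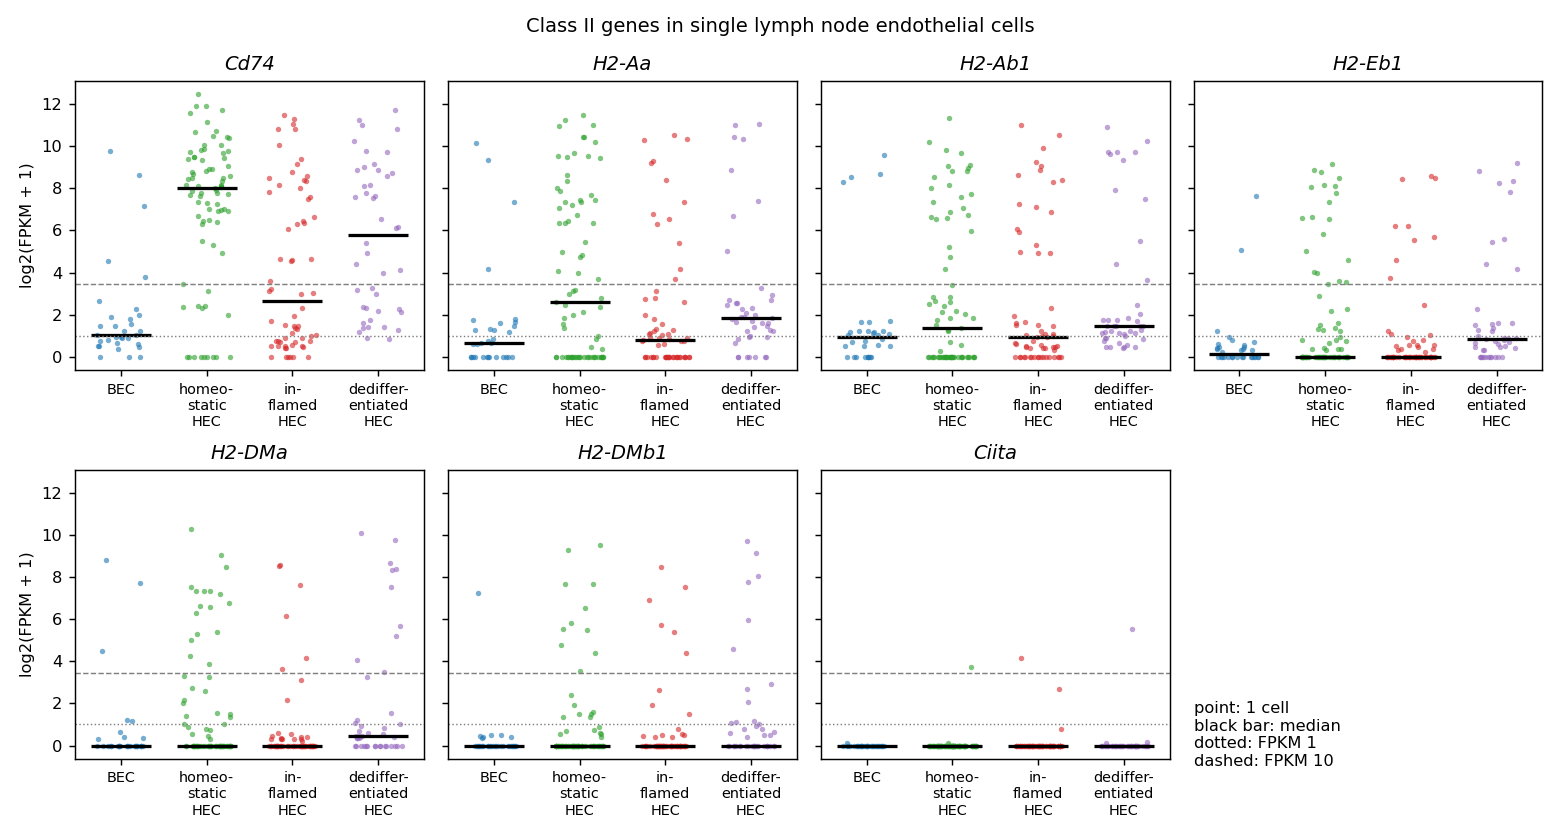
Level of each class II gene as log2(FPKM + 1) on the y axis, with 1 point per cell and the 4 groups on the x axis; the black bar is the median over cells, and the dotted and dashed lines mark an FPKM of 1 and 10. Cd74 is at 10 or more in 63 of 79 homeostatic HEC and in 5 of 32 BEC, and H2-Aa is in 35 of 79 homeostatic HEC and in 4 of 32 BEC.

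H2-Aa, the alpha chain of the I-A molecule, was found in fewer cells. Its median FPKM was 0.575 in BEC (range 0 to 1142), 5.13 in homeostatic HEC (0 to 2845), 0.735 in inflamed HEC (0 to 1482) and 2.55 in dedifferentiated HEC (0 to 2086). It was found in 13 of 32 BEC (40.6%), 48 of 79 homeostatic (60.8%), 27 of 64 inflamed (42.2%) and 33 of 44 dedifferentiated HEC (75%). At an FPKM of 10 or more the order changed, with 4 BEC, 35 homeostatic (44.3%; 33.1 to 55.9), 13 inflamed (20.3%; 11.3 to 32.2) and 8 dedifferentiated HEC (18.2%; 8.19 to 32.7). Dedifferentiated HEC thus had H2-Aa in the largest share of cells at the lower limit and in a smaller share than homeostatic HEC at the higher one. Values above 0 and below 10 were held by 29 of 44 dedifferentiated and 16 of 79 homeostatic HEC. In the cells at 10 or more the median was 171 in homeostatic and 888 in dedifferentiated HEC.

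H2-Ab1, the beta partner of H2-Aa, had a median of 0.915 in BEC (range 0 to 772), 1.59 in homeostatic (0 to 2550), 0.94 in inflamed (0 to 2077) and 1.77 in dedifferentiated HEC (0.32 to 1884). It was above 0 in all 44 dedifferentiated HEC and at 0 in 34 of 79 homeostatic HEC. At 10 or more the shares were 12.5% of BEC, 31.6% of homeostatic, 28.1% of inflamed and 27.3% of dedifferentiated HEC, so that the 3 HEC groups lay within each other's intervals. H2-Eb1 was the scarcest of the 3 chains, found in 3 of 32 BEC, 29 of 79 homeostatic (36.7%), 13 of 64 inflamed (20.3%) and 17 of 44 dedifferentiated HEC (38.6%), and its highest FPKM was 580, in a dedifferentiated HEC. H2-Ea-ps, the entry of the broken alpha gene, was at 1.07 in 1 inflamed HEC and at 0 in every other cell.

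Both genes of the peptide-loading pair were found in a minority of the cells of each group. H2-DMa was found in 5 of 32 BEC, 29 of 79 homeostatic (36.7%; 26.1 to 48.3), 8 of 64 inflamed (12.5%; 5.55 to 23.2) and 15 of 44 dedifferentiated HEC (34.1%; 20.5 to 49.9). The intervals of homeostatic and inflamed HEC do not overlap, but they cover only counting error over the cells of 1 sample per group. They do not measure the spread between animals. H2-DMb1 was found in 1 BEC, 18 homeostatic, 9 inflamed and 13 dedifferentiated HEC; H2-DMb2 is a close copy, and fragments may have been shared between the entries. Ciita, the coactivator, was above 0 in 1 BEC, 2 homeostatic, 3 inflamed and 3 dedifferentiated HEC, and reached 1 in 4 HEC only. Those are homeostatic cell 70 at 12.1, inflamed cells 40 at 16.9 and 11 at 5.41, and dedifferentiated cell 41 at 45.6. No BEC reached 1, which at 0 of 32 cells allows a share of up to 9.38%. In 3 of the 4 Ciita cells Cd74 was high, at 3341, 2092 and 3357, and in inflamed cell 11 it was 0.41 with H2-Aa at 109. Homeostatic cell 70 and inflamed cell 40, with Cd74 at 3341 and 2092, also had the leukocyte gene Ptprc or Cd79a at 1 or more. Dedifferentiated cell 41, with Cd74 at 3357, had both below 1. Without the cells carrying markers of another cell type (counted below), Ciita was found in 0 of 60 homeostatic, 1 of 58 inflamed and 1 of 41 dedifferentiated HEC. At this depth a value of 0 does not show that the transcript is absent.

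Between homeostatic HEC and BEC, the difference of mean log2(FPKM + 1) was 5.17 for Cd74, 2.32 for H2-Aa, 1.26 for H2-Eb1, 1.21 for H2-Ab1, 1.01 for H2-DMa, 0.79 for H2-DMb1 and 0.05 for Ciita. All members but Ciita were found in over 10% of the cells of a compared group. Of these 6, 5 were higher by 1 or more in HEC and none was lower; over the 9248 genes with such levels, 17% were higher and 4.4% lower by as much. The median over the 6 members was 1.23, and over all those genes 0.28. Because the median of all genes moved, the values were also read after scaling each cell by its median ratio to a common profile: Cd74 then differed by 4.47 and H2-Aa by 1.84, H2-Eb1 by 0.99, H2-DMa by 0.84 and H2-Ab1 by 0.77, so that only Cd74 and H2-Aa stayed past 1. A second scaling, to the geometric mean profile, gave 4.60, 1.93 and 1.04 for Cd74, H2-Aa and H2-Eb1, and 0.85 for H2-Ab1. Among the cells with 2500 to 4500 detected genes the difference of H2-Ab1 was -0.07. HEC had more detected genes than BEC (median 3842 in homeostatic HEC and 2871 in BEC), and their part in the result was not tested.

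Inflamed against homeostatic HEC, Cd74 was lower by a difference of -3.07, H2-Aa by -1.79 and H2-DMa by -1.04. H2-Eb1 differed by -0.81, H2-Ab1 by -0.37, H2-DMb1 by -0.34 and Ciita by 0.07. So 3 of the 6 members were lower by 1 or more, where 2.6% of 9525 genes were lower and 5.48% higher, and the median over all genes was 0.10. The same 3 members stayed past -1 under both scalings. As the ratio of arithmetic means on a log2 scale, to which a few very high cells add most, Cd74 differed by -1.23. Cd74 was at 1000 or more in 6 inflamed HEC, and 3 of these had Ptprc or Cd79a at 1 or more. Cd74 was at 10 or more in 43.8% of inflamed HEC (31.4 to 56.7) and in 79.7% of homeostatic HEC (69.2 to 88.0).

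Dedifferentiated against homeostatic HEC, Cd74 differed by -1.45 and H2-Aa by -1.02, while H2-DMb1 differed by 0.33, H2-Ab1 by 0.16, H2-DMa by 0.16, Ciita by 0.08 and H2-Eb1 by 0.04. Here 2 of the 6 members were lower by 1 or more, beside 9.52% of 9008 genes lower and 0.833% higher, with a median of -0.30 over all genes. Neither gene stayed past -1 after scaling: Cd74 differed by -0.40 and -0.50, H2-Aa by -0.31 and -0.37 under the 2 scalings, and H2-Ab1 by 0.97 and 0.89. Both treated groups were set against the same homeostatic cells, so the comparisons share those cells.

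The other genes of the pathway divide by step. Of 9 genes of antigen processing and minor class II genes with enough cells, 6 were higher in homeostatic HEC than in BEC, beside 17% of all genes higher and 4.4% lower. These are Ctsl, the lysosomal cathepsin that processes CD74 in thymic epithelium (difference 4.68), the aspartic cathepsin Ctsd (3.24), the asparagine endopeptidase Lgmn (2.69), the cytokine and CD74 ligand Mif (2.13), the cathepsin Ctss of antigen-presenting cells (1.53) and the cysteine cathepsin Ctsb (1.26). After median-ratio scaling Ctsb differed by 0.47 and the other 5 stayed past 1; as a log2 ratio of arithmetic means Ctsl (2.67), Lgmn (2.46) and Ctsd (1.35) stayed past 1, and Ctss turned to -0.11. Ctsl was found in 31 of 32 BEC and in all 187 HEC, with a median FPKM of 1147 in homeostatic HEC and 30.2 in BEC. In inflamed HEC Mif (1.93), Ctsb (1.24) and Lgmn (1.01) were higher, and Ctsl (-1.42) and Ctsd (-1.23) lower, than in homeostatic HEC, beside 5.48% of all genes higher and 2.6% lower. Lgmn fell short of 1 after scaling (0.99). Of 10 such genes none was past 1 or -1 in dedifferentiated HEC, beside 0.833% of all genes higher and 9.52% lower; after median-ratio scaling Lgmn (1.8), Ctsd (1.76) and Ctsb (1.56) were.

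Of 6 promoter-complex genes with enough cells, none differed by 1 or more in any of the 3 comparisons. They are the RFX subunits Rfx5 and Rfxank, the NF-Y subunits and Creb1. Over all genes, 17% were higher and 4.4% lower in homeostatic HEC than in BEC. The shares were 5.48% and 2.6% for inflamed, and 0.833% and 9.52% for dedifferentiated, against homeostatic HEC. With 6 genes, none past 1 lies near those shares. Without marker-carrying cells the NF-Y subunit Nfyc differed by 1.14 between homeostatic HEC and BEC and by -1.03 between dedifferentiated and homeostatic HEC. Rfx5 was found in 13 of 79 homeostatic HEC. Among genes of interferon gamma input, the kinase Jak1 (2.16) and the receptor chain Ifngr2 (2.11) were higher in homeostatic HEC than in BEC. In inflamed HEC the kinase Jak2 was higher (1.61). In dedifferentiated HEC Ifngr2 (-1.50) and the factor Irf1 (-1.09) were lower, and after median-ratio scaling they differed by -0.67 and -0.21. The other receptor chain, Ifngr1, differed by -0.72 between homeostatic HEC and BEC and by -1.66 after that scaling. Costimulatory genes were rarely found. The T cell costimulator Cd80 was found in 1 inflamed HEC and Cd86 in 2 homeostatic HEC, and in no other of the 219 cells. Cd40 was found in 1 BEC, 2 homeostatic, 1 inflamed and 1 dedifferentiated HEC. Cd274, which encodes the inhibitory ligand PD-L1, was found in 12 of 32 BEC, 49 of 79 homeostatic, 37 of 64 inflamed and 13 of 44 dedifferentiated HEC.

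Joint detection was counted cell by cell. Among the 79 homeostatic HEC, Cd74 and H2-Aa were both found in 47 cells, Cd74 alone in 23 and H2-Aa alone in 1. H2-Aa and its partner H2-Ab1 were both found in 39 cells, H2-Aa without H2-Ab1 in 9 and H2-Ab1 without H2-Aa in 3. Every one of the 29 cells with H2-Eb1 and of the 29 with H2-DMa also had Cd74. As a description, over cells of 1 sample with differing depths, the Pearson r of log2(FPKM + 1) in these 79 cells was 0.60 between H2-Aa and H2-Ab1, 0.59 between H2-DMa and H2-DMb1, 0.58 between H2-Aa and H2-Eb1 and 0.54 between Cd74 and H2-Aa. In the 44 dedifferentiated HEC the highest r was between H2-Ab1 and H2-Eb1, at 0.74, and that of H2-Aa with H2-Ab1 was 0.30. There H2-Aa and H2-Ab1 were both found in 25 cells, H2-Aa alone in 8 and H2-Ab1 alone in 7, and the r of H2-Aa with H2-DMb1 was 0.21.

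Cells with H2-Aa, H2-Ab1 and H2-Eb1 all found are called trio cells. They were 3 of 32 BEC (9.38%; 1.98 to 25), 24 of 79 homeostatic (30.4%; 20.5 to 41.8), 7 of 64 inflamed (10.9%; 4.51 to 21.2) and 12 of 44 dedifferentiated HEC (27.3%; 15 to 42.8). At an FPKM of 10 or more in all 3 chains they were 2 BEC, 13 homeostatic, 5 inflamed and 5 dedifferentiated HEC, and at 100 or more 1, 6, 2 and 1. After either scaling the trio shares were 18.8% of BEC, 26.6% of homeostatic, 9.38% of inflamed and 43.2% of dedifferentiated HEC, so that dedifferentiated HEC came first. Cells with none of the 3 chains found were 14 of 32 BEC, 26 of 79 homeostatic, 23 of 64 inflamed and 4 of 44 dedifferentiated HEC.

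**Figure D2:**
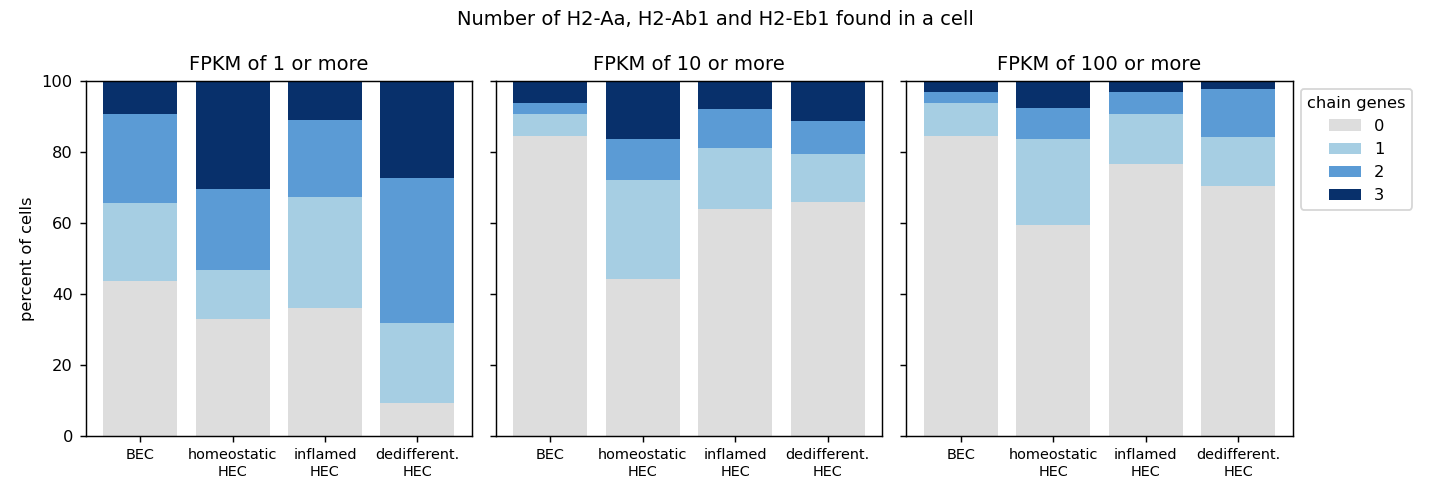
Percent of the cells of each group (y axis) with 0, 1, 2 or 3 of the chain genes H2-Aa, H2-Ab1 and H2-Eb1, at an FPKM limit of 1, 10 and 100 (panels). All 3 chains are in 30.4% of homeostatic HEC at a limit of 1 and in 16.5% at a limit of 10; in dedifferentiated HEC the share falls from 27.3% to 11.4%.

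In homeostatic HEC the level of Cd74 ran ahead of the chains. Of the 43 homeostatic HEC with Cd74 from 100 to 1000, 13 had none of the 3 chains and 14 had all 3. Of the 13 with Cd74 of 1000 or more, none lacked all chains and 8 had all 3. With Cd74 from 100 to 1000, 3 of 12 inflamed HEC had none of the chains and 1 had all 3. In dedifferentiated HEC at that level 0 of 14 had none and 4 had all 3. Some cells high in Cd74 lacked 1 chain of the I-A pair. Homeostatic cell 40 had Cd74 at 1059 and H2-Aa at 327 with H2-Ab1 at 0, and dedifferentiated cell 30 had Cd74 at 1189 and H2-Ab1 at 650 with H2-Aa at 0.

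The leukocyte genes were then read in the same cells: Ptprc (CD45, a phosphatase of all leukocytes), Cd79a (a signalling chain of the B cell receptor) and Coro1a (an actin regulator abundant in leukocytes). None of them was used to choose trio cells. Over the 3 HEC groups, Ptprc was found in 7 of 43 trio cells (16.3%; 6.81 to 30.7) and in 0 of 144 other HEC, which allows a share of up to 2.08%. Cd79a was found in 11 of 43 trio cells (25.6%; 13.5 to 41.2) and in 4 of 144 others (2.78%; 0.762 to 6.96). Ptprc or Cd79a was thus found in 12 of 43 trio cells (27.9%; 15.3 to 43.7) and in the same 4 of 144 others, and at a chain limit of 10 in 11 of 23 trio cells (47.8%) and 5 of 164 others (3.05%). Coro1a separated the cells less, with 18 of 43 trio cells (41.9%; 27 to 57.9) and 34 of 144 others (23.6%; 16.9 to 31.4), and the intervals overlap. It was found in 32 of 79 homeostatic HEC, where Ptprc was in 3 and Cd79a in 9.

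By group, Ptprc or Cd79a was found in 8 of 24 homeostatic trio cells and 2 of 55 other homeostatic HEC, in 3 of 7 inflamed trio cells and 1 of 57 others, and in 1 of 12 dedifferentiated trio cells and 1 of 32 others. Coro1a was in 13 of 24 homeostatic trio cells and 19 of 55 others, in 5 of 7 inflamed trio cells and 10 of 57 others, and in 0 of 12 dedifferentiated trio cells, which allows a share of up to 25%, and 5 of 32 others. In BEC, 1 of 3 trio cells had Cd79a, cell 22 at 2.83, as did 3 of 29 others, and Ptprc was below 1 in every BEC.

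**Figure D3:**
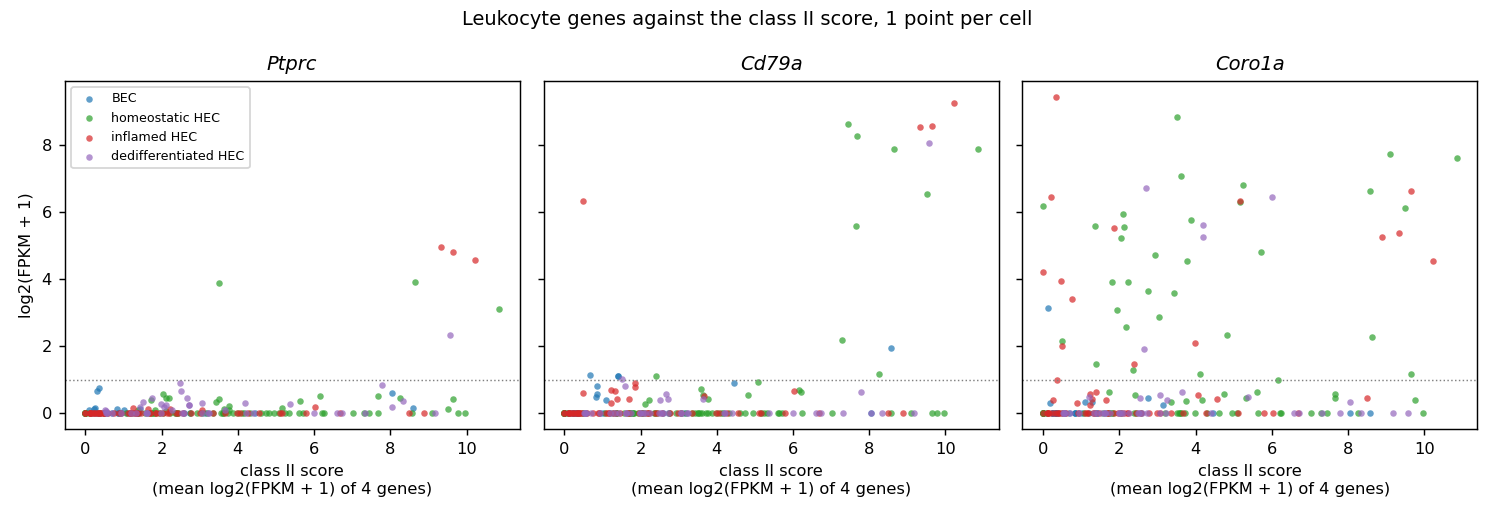
Level of Ptprc, Cd79a and Coro1a as log2(FPKM + 1) (y axes) against the class II score of the cell (x axis, mean log2(FPKM + 1) of Cd74, H2-Aa, H2-Ab1 and H2-Eb1), with 1 point per cell coloured by group. The dotted line marks an FPKM of 1; 12 of the 16 HEC at or above it for Ptprc or Cd79a are trio cells, while Coro1a is spread over the whole range of the score.

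Among the HEC highest in Cd74 there were cells with and cells without these genes. Of the 24 HEC with Cd74 at 1000 or more, 8 had Ptprc or Cd79a (33.3%; 15.6 to 55.3), and 16 did not. At Cd74 from 100 to 1000 they were 5 of 69 HEC, from 10 to 100 they were 0 of 25, which allows up to 12%, and below 10 they were 3 of 69. In the 8 cells Cd79a ran from 92.3 to 610, Cd53 from 61 to 201, and 6 of 8 had the B cell membrane gene Ms4a1. The 16 were chosen by Ptprc and Cd79a below 1; Cd79a was 0 in every one and Ptprc at most 0.35. Of genes not used for that choice, Cd79b, the partner of Cd79a, was at most 0.98, the lysosomal leukocyte gene Laptm5 at most 0.91 and Ms4a1 at most 1.02. Cd53 was found in 1 of the 16, at 172, Coro1a in 5, and 1 of the 16 carried 3 or more leukocyte markers at 10 or more.

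The 16 cells had a median Cd74 of 1925, against 1937 in the 8, and their ranges overlap, from 1059 to 5639 and from 1618 to 3341. Median H2-Aa was 674 in the 16 and 1441 in the 8, median H2-Ab1 261 and 760. The vascular cadherin Cdh5 had a median of 84.0 in the 16 (range 10.2 to 241) and of 72.8 in the 8 (28.3 to 150), so endothelial genes were found in both kinds. Homeostatic cell 6 held the highest Cd74 of all cells, 5639, with H2-Aa at 1976, H2-Ab1 at 194 and H2-Eb1 at 465, and Ptprc, Cd79a and Coro1a at 0. Homeostatic cell 48 had Cd74 at 3080, H2-Aa at 732, H2-Ab1 at 1180 and H2-DMb1 at 727, with Ptprc and Cd79a at 0. Inflamed cell 40 shows the other kind, with Cd74 at 2092, H2-Ab1 at 2077 and Ciita at 16.9, and with Cd79a at 610, Cd79b at 275 and Ptprc at 23 beside Cdh5 at 78.9 and Glycam1 at 32874.

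Split by Ptprc or Cd79a, the 43 trio HEC differed in the loading genes and their inhibitors, and also in the level of Cd74 and H2-Aa. The 12 trio cells with them had a median H2-DMa of 128 (range 1.96 to 1251) and all 12 were at 1 or more, while the 31 without had a median of 0.35 (0 to 1082) and 13 were at 1 or more. H2-DMb2 was found in 10 of 12 and 6 of 31. H2-Oa and H2-Ob, the DM inhibitor of B cells and some dendritic cells, were each found in 6 of the 12 and in none of the 31, which allows up to 9.68%. The median FPKM of Cd74 was 1699 in the 12 and 353 in the 31, and that of H2-Aa 1034 and 79.6. Laptm5 was found in 10 of 12 and 0 of 31. Glycam1 had a median of 42043 in the 12 and 25469 in the 31, and Pecam1 of 686 and 1043, with wide overlap. At a chain limit of 10, median Cd74 was 1780 in the 11 trio cells with Ptprc or Cd79a and 1628 in the 12 without. H2-DMa was then found in 11 of 11 (median 96.5) and 7 of 12 (median 18.9), and H2-DMb1 in 9 of 11 and 7 of 12. H2-DMb2 was in 9 of 11 and 2 of 12. H2-Oa and H2-Ob were each in 6 of 11 and 0 of 12, which allows up to 25%.

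**Figure D4:**
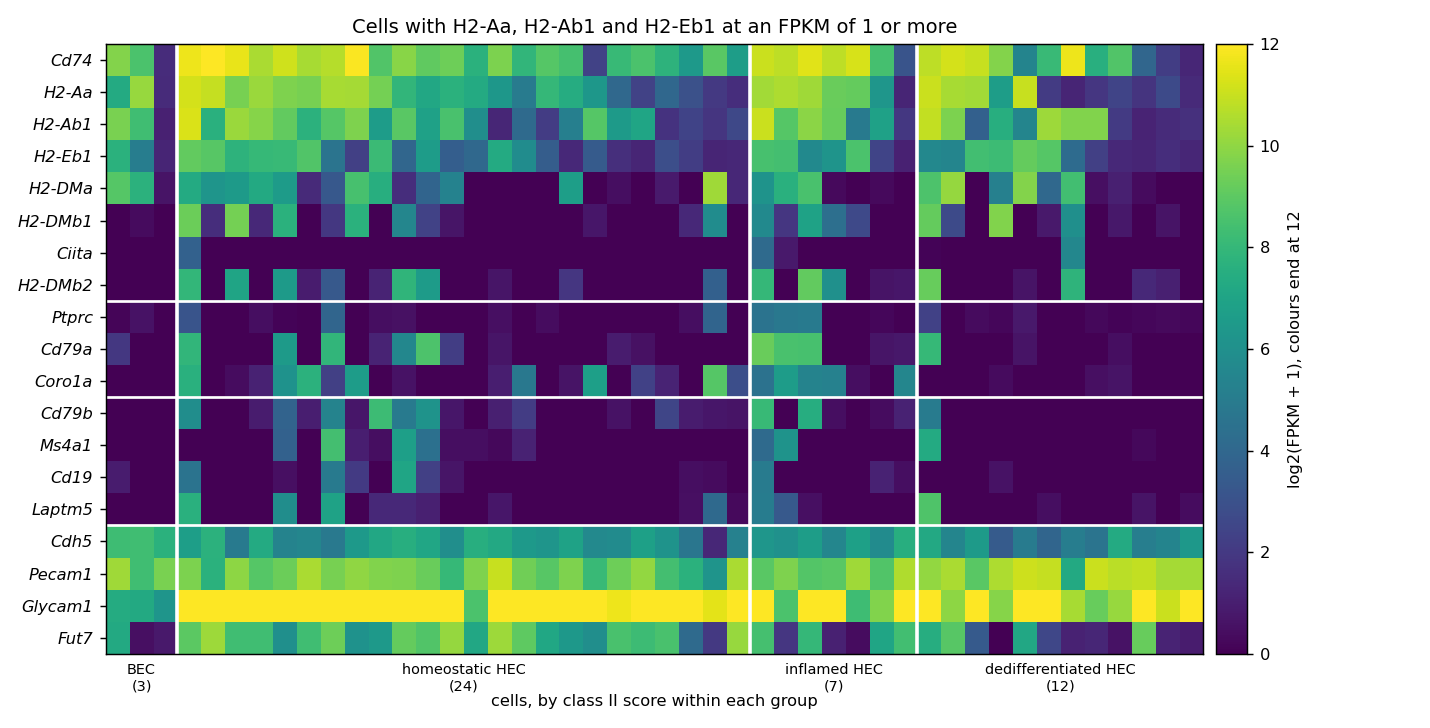
Level as log2(FPKM + 1) (colour) of class II, leukocyte and endothelial genes (rows) in the 46 trio cells (columns), ordered by class II score within each group. Among the 43 HEC columns Cd79a is at 1 or more in 11 and Ptprc in 7. Pecam1 is at an FPKM of 72.9 or more in all 43, and Glycam1 runs widely, from 308 to 295547.

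The marker lists were also counted per cell, at 3 or more markers of another cell type at an FPKM of 10 or more. B lymphocyte markers reached this in 0 of 32 BEC, 7 of 79 homeostatic, 3 of 64 inflamed and 1 of 44 dedifferentiated HEC. T lymphocyte and fibroblastic reticular markers reached it in no cell. Dendritic and myeloid markers reached it in homeostatic cell 52, where 7 of the 12 in the table were at 10 or more, with H2-DMa at 1251, Coro1a at 456, Ptprc at 13.8, Cd79a at 0 and Cdh5 at 1.55. Counting any list, 19 homeostatic, 6 inflamed and 3 dedifferentiated HEC carried such markers, and all of them did so through the pan-leukocyte list. Of its members, Arhgdib and Lcp1 were at 10 or more in 50 and 48 of the 79 homeostatic HEC. The summed FPKM of the B lymphocyte list ran from 0 over a median of 1.15 to 1139 in the 43 trio HEC and from 0 over a median of 0.24 to 1847 in the 144 others, and was 0 in 5 and 48 cells. That of the pan-leukocyte list ran from 2.19 over 292 to 6036 and from 0.69 over 174 to 2701. Without the marker-carrying cells, Cd74 differed by 4.61 between homeostatic HEC and BEC, by -2.97 between inflamed and homeostatic HEC and by -0.95 between dedifferentiated and homeostatic HEC, and H2-Aa by 1.88, -1.68 and -0.85. Without them only Cd74 and H2-Aa stayed past 1 between homeostatic HEC and BEC, while H2-Eb1 differed by 0.98, H2-DMa by 0.77 and H2-Ab1 by 0.58. Without them 1 of 31 trio HEC had Ptprc or Cd79a, a share that the removal itself lowers, since both genes are in the lists. Doublets were not called, and all deposited cells were kept.

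Set beside the other 55 homeostatic HEC, the 24 trio cells had more detected genes (median 4333 and 3613). Their approximated depth was lower (median 1500000 and 2290000 fragments), but the fit of the depth steps, at most 1, averaged 0.38 in homeostatic HEC. The part of detected genes and depth in the result was not tested. Glycam1 had a median of 57383 in the trio cells and 64224 in the others, and Cdh5 of 80.4 and 81.5. Of 8 high endothelial markers none differed by 1 or more between trio cells and the others, and of 10 blood endothelial markers 1 was higher. Of 9 pan-leukocyte markers 5 were higher, of 6 B lymphocyte markers 3, where 10% of 9485 genes were higher by as much and 0.443% lower. H2-DMa differed by 2.52 and H2-DMb1 by 1.76, and of 11 other class II and processing genes 4 were higher: H2-DMb2 (1.89), Mif (1.59), Ctss (1.46) and the lysosomal thiol reductase Ifi30 (1.27). Ctsl (-0.04) and Ctsd (-0.08), raised in HEC as a whole, lay near 0. Of the interferon gamma genes, Ifngr1 differed by 1.0, Irf1 by 0.28, Jak1 by 0.10, Ifngr2 by 0.03 and Jak2 by -0.24 in homeostatic HEC; Ifngr1 differed by 1.18 in inflamed and by 1.46 in dedifferentiated HEC. In inflamed HEC, 7 trio cells beside 57 others, 8 of 9 pan-leukocyte and 6 of 8 B lymphocyte markers were higher in trio cells, where 15.4% of 10372 genes were higher and 5.08% lower. In dedifferentiated HEC, 12 trio cells beside 32 others, 1 of 4 pan-leukocyte markers was higher and 1 lower, where 9.06% of 7789 genes were higher and 8.91% lower. Cd74, H2-DMa and H2-DMb1 were higher by 1 or more in trio cells in each HEC group, and so were the 3 chains, for which the choice of cells fixes it. Ciita differed by 0.66 in inflamed HEC and was found in too few cells of the other HEC groups.

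Ranked by Pearson r with the class II score over the 79 homeostatic HEC, among 8288 genes, the most alike were H2-DMa (0.56), H2-DMb2 (0.55), Cd79b (0.52), Cd79a (0.51), the B cell tetraspanin Cd37 (0.50), H2-DMb1 (0.49), Laptm5 (0.47), the selenocysteine lyase Scly (0.46), the leukocyte tetraspanin Cd53 (0.46) and the histone demethylase Kdm5a (0.44). Of these, 5 are leukocyte markers of the lists above. Not every listed marker ranked high: Coro1a was at rank 1651 of the 8288 genes (0.15). Without the 19 marker-carrying cells, over 60 cells, H2-DMa was still first (0.56) and H2-DMb1 14th of 8311 (0.42), and Cd79a, Cd79b, Cd37, Laptm5 and Cd53 were no longer among the first 10; all 5 are in the lists by which those cells were removed. Of the pathway lists, Ctsb (0.28), Ifngr1 (0.27), Rfx5 (0.22), Jak1 (0.21) and Nfya (0.20) had the highest r with the score over the 79 cells below those, and Ctsl (0.05), Cd274 (0.03) and Irf1 (0.02) were near 0; r of this size in sparse values is no finding. In the 64 inflamed HEC the kinase Riok2 (0.60), H2-DMb1 (0.59), the B cell IgE receptor Fcer2a (0.56) and the haematopoietic GTPase Rac2 (0.54) came first. Without the marker-carrying cells, over 58 cells, the protease Atg4b (0.58) came first, H2-DMb1 was 18th (0.46), and Fcer2a and Rac2, a listed marker, were not among the first 10. These r are descriptions over cells of 1 sample, and most of the genes were at 0 in most cells.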

How the data were processed

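The authors deposited 1 table of FPKM values for 24049 gene symbols in 220 cells; the tools named in the submitters' processing notes are RSEM 1.2.18 and CASAVA 1.8, with the build mm10, and their roles are not given there. Lymph nodes were dissociated, endothelial cells sorted, and libraries made on the Fluidigm C1 with Nextera XT, per the labels' protocols; nothing is stated there of the sort gate or of doublets. Every column was mapped to a cell by its title. Inflamed cells 43 and 60 (r 0.988 on log2 values, the limit for a pair being 0.9, against 0.701 for the next closest pair) were averaged and counted once, leaving 219 cells.

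Values were used as log2(FPKM + 1), computed here from the FPKM the authors deposited, with Python 3.11.15, NumPy 2.4.6, pandas 2.3.3, SciPy 1.17.1 and matplotlib 3.10.9. Each group is 1 sample, so no p-value was computed. A difference of group means of 1 or -1 was counted, over genes found (FPKM 1 or higher) in over 10% of the cells of a compared group; it understates the ratio of low genes. Intervals are exact Clopper-Pearson at 95%; for a count of 0 the limit is 3 counts. Both cover counting error over cells only. Depth was approximated from the FPKM steps of 3445 single-transcript genes, with transcript lengths shortened by 200 bases. The fit of these steps, at most 1, averaged 0.38 in BEC, 0.38 in homeostatic, 0.39 in inflamed and 0.40 in dedifferentiated HEC. Depths of single cells are therefore rough. The calculation was tested on simulated data.

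Named genes are the 7 members, the pathway lists and the 10 genes with the highest Pearson r with the class II score (mean log2(FPKM + 1) of Cd74, H2-Aa, H2-Ab1 and H2-Eb1), with and without cells carrying 3 or more markers of another cell type at 10 or more, leaving out the score's 4 genes and predicted names; of the latter lists the leading genes are printed. Single cells were named after their values were seen. The members and lists were chosen with earlier results of these data known. Gene positions are from GENCODE M21 and promoters from RefSeq (GRCm38.p6). Alternatives were other detection limits, pseudocounts, scalings and sets of cells. 1 gene of the interferon gamma list is not reported here.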

Additional observations from a re-analysis of the deposited data

How the results depend on the processing

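The direction of Cd74 held in every alternative run. The difference between homeostatic HEC and BEC, 5.17, was 4.47 after median-ratio scaling, 4.48 in cells with 2500 to 4500 genes, 3.60 with a pseudocount of 10 and 3.72 as a ratio of arithmetic means. Inflamed against homeostatic HEC, -3.07 became -3.66 in cells with 2500 to 4500 genes, -2.17 with a pseudocount of 10 and -1.23 as a ratio of means. Dedifferentiated against homeostatic HEC, -1.45 became -0.40 after scaling, -0.50 after scaling to the geometric mean profile, -0.95 without marker-carrying cells and -0.67 as a ratio of means, all short of -1.

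The share of trio cells followed the limit. At any FPKM above 0 it was 37.5% of BEC, 43% of homeostatic, 26.6% of inflamed and 65.9% of dedifferentiated HEC. At 10 it was 16.5% of homeostatic and 11.4% of dedifferentiated HEC, and at 100 it was 7.59% of homeostatic, 3.12% of inflamed and 2.27% of dedifferentiated HEC. Under both scalings it was 18.8% of BEC, 26.6% of homeostatic and 43.2% of dedifferentiated HEC. Ptprc or Cd79a in trio HEC, 27.9%, was 6.06% without cells carrying B lymphocyte markers, 3.23% without any marker-carrying cells (the lists used for removal hold Cd79a, and in the second case Ptprc, so the removal itself lowers the share), and 60% at any FPKM above 0; with Coro1a added it was 53.5%. In other HEC, 2.78% became 21.5% at any FPKM above 0 and 26.4% with Coro1a added. The limit of 100, the geometric mean profile, the removal of B lymphocyte marker cells and the alternatives for pathway genes were chosen after seeing the data.

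Depth limits low genes such as Ciita: a value of 0 does not show absence. No paired analysis was possible because cell numbers only name cells and the results come from no test.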
